A study of Mus musculus with 4 samples.

Results

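The 9 genes described here encode the chains of the fibrillar collagens of types I, II, III, V and XI: Col1a1, Col1a2, Col2a1, Col3a1, Col5a1, Col5a2, Col5a3, Col11a1 and Col11a2. They were taken by symbol from a deposited table of 55401 mouse genes, and all 9 were found once. The libraries came from mouse heart at day 28 after surgery: 2 from Sham animals, whose chest was opened without ligation, and 2 from MI animals, in which a ligation produced a myocardial infarct, a zone of muscle killed by loss of blood flow. Each sample is labelled only as heart, while the study's design speaks of infarcted tissue or normal left ventricle, so the region taken is not known library by library. The labels give no strain, sex or age. The study's title names the plant pigment cyanidin, and no treated samples were analysed here. Nothing states that the replicates of a group came from separate animals, so the spread between them may be technical.

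Fibrillar collagens form the cable-like fibrils that give tissue its tensile strength. Each molecule is a triple helix of 3 chains: type I joins a pair of chains from Col1a1 with a chain from Col1a2, types II and III hold copies of a single chain, and types V and XI mix different chains. Types V and XI sit inside fibrils of the more abundant types and limit their width. In the heart, types I and III make up most of the interstitial matrix, and fibroblasts that gather in an infarct lay down the collagen of the scar that replaces dead muscle. Types II and XI are best known from cartilage.

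What the 9 chains share can be seen in their coding sequence. A triple helix can close only where glycine, the smallest amino acid, opens every triplet of residues, and every glycine codon begins with GG. In the GENCODE M21 transcripts (GRCm38), the longest unbroken run of triplets opened by glycine held 338 triplets in Col1a1, 339 in Col1a2, 339 in Col2a1, 344 in Col3a1, 338 in Col5a1, 339 in Col5a2, 337 in Col5a3, 338 in Col11a1 and 338 in Col11a2. Of 21877 coding genes read in the same way, the 9 longest runs were those of these 9 genes. Next came Col27a1 with 217 and Col24a1 with 216, the other fibril-forming chains, and then Col9a1, Col9a2, Col9a3 and Col22a1 with 113 each. The run began at codon 168 in Col1a1 and at codon 559 in Col5a1. The glycine codon GGG made up 1.2% of the glycine triplets of Col1a1, 8.0% of those of Col1a2 and 20.5% of those of Col5a3. The first 63 bases of the run are shown 5′ to 3′ for 5 chains, to set the repeat of the abundant types I and III beside that of 1 chain each of types V and XI. Capitals mark the glycine codon that opens each triplet, and other glycine codons within a triplet are in lower case.
Col1a1: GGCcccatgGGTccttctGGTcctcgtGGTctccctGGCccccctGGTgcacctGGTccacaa
Col1a2: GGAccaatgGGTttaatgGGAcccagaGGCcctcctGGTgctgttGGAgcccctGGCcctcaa
Col3a1: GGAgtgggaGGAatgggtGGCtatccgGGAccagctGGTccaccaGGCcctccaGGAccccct
Col5a3: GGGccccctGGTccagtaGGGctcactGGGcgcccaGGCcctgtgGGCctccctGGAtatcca
Col11a1: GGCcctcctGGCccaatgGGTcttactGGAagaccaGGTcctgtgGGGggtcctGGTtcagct

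The genes lie on 8 chromosomes, with Col3a1 (chromosome 1, 45311538 to 45349706, GRCm38) and Col5a2 (chromosome 1, 45374321 to 45503282) next to each other on opposite strands, 24614 bases apart. RefSeq promoter sequences (GRCm38.p6) were matched for 6 of the 9 genes. The 250 bases before the RefSeq start are shown for 4 chains that were high in the MI libraries by different amounts, 5′ to 3′ on the gene's strand. Capitals mark 3 motifs searched on both strands: CCAAT (or ATTGG), the letters bound by the factor NF-Y, GGGCGG (or CCGCCC), the GC box of Sp1, and TATAAA (or TTTATA), the TATA box.
Col1a2, chr6:4505368-4505617, plus strand: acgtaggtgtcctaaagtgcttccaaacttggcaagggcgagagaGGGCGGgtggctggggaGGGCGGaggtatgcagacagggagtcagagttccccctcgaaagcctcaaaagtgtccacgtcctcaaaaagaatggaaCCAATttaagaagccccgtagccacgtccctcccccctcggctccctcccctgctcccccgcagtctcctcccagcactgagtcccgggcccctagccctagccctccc
Col3a1, chr1:45311288-45311537, plus strand: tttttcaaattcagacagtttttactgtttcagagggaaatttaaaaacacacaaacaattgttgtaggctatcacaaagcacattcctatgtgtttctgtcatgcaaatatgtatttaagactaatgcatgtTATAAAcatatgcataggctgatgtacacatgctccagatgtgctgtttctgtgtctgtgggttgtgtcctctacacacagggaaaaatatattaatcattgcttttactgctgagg
Col5a3, chr9:20815068-20815317, minus strand: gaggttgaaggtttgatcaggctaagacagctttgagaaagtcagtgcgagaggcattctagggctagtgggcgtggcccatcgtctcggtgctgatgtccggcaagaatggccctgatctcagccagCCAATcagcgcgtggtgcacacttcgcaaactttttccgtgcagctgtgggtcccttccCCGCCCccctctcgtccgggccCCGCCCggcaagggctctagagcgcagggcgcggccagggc
Col11a1, chr3:114030290-114030539, plus strand: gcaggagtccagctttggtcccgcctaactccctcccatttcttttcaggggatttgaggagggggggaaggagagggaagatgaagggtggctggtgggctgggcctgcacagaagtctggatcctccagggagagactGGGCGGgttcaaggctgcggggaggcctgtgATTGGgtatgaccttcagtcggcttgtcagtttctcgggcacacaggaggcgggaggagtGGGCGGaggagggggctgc
CCAAT occurred in 3 of the 6 promoters (Col1a2, Col5a3 and Col11a1), against 33.8% of 32851 promoters of the same length. GGGCGG occurred in 5 of 6, all but Col3a1, against 32.7%. TATAAA occurred in 2 of 6, against 12.4%, at position -117 from the RefSeq start in Col3a1 and -143 in Col11a2. The Col3a1 window was the poorest in G and C (35.2%) and that of Col5a1 the richest (76.4%), where the median promoter had 52.4%. The Col1a2 window lies inside the gene's GENCODE span (chromosome 6, 4504814 to 4541544). The percentages over all promoters count a match anywhere in the 250 bases and were not matched for G and C content. A match of letters is a description and not a bound site.

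Total estimated counts were between 66624106 and 75979320 per library, and low counts pile up at multiples of 4. Fragments were therefore taken as counts divided by 4, an assumption that no source states, and the floor of 3 fragments as 12 counts. The exact counting intervals and the floor cover counting error only, and not the spread between libraries. They also treat fragments as independent molecules, which PCR copies are not. Ventricular cardiomyocyte markers summed to between 12088 and 13050 FPKM (a level scaled for gene length and library size) and none of the 8 was at 0, so the tissue label was met in every library. Each group held a library that stood apart. MI replicate 1 had 290 FPKM summed over 8 lung epithelium markers, none at 0. The Sham libraries had 0.24 and 1.01, and MI replicate 2 had 0.33, with 5 of the 8 at 0. MI replicate 1 also had 298, 267 and 93 counts of the skeletal muscle genes Myh1, Myh4 and Myh2, at most 4 elsewhere. Ckm, from the same list, overlapped between groups. Sham replicate 2 had 5053 FPKM over 8 atrial markers, where Sham replicate 1 had 154 and the MI libraries 2646 and 1864. Nppa, a hormone gene that stressed ventricle also expresses, gave 2631.97 and 1855.23 of the MI sums. The other 7 atrial markers summed to 1538 FPKM in Sham replicate 2, against 2.75 in Sham replicate 1 and 13.6 and 8.98 in MI. Sham replicate 2 also had 131 FPKM over 4 adipocyte markers, at most 0.38 elsewhere.

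Fibrillar collagen transcripts were more abundant in both MI libraries than in either Sham library for all 9 genes. Sham and MI values are given in the order replicate 1, replicate 2 throughout. Of all counts, the 9 genes together took 0.0339% and 0.0518% in Sham, and 0.329% and 0.149% in MI. In bulk tissue, more cells of a type and more RNA per cell cannot be told apart. On CPM (counts scaled to library size with TMM factors), 24.9% of the 18475 genes tested had both MI libraries above both Sham libraries and 21.9% had both below, and on FPKM 39.0% had both above. The 9 genes all passed the filter on low counts. Their median log2 difference (MI minus Sham) was 2.28, where that of all genes tested was 0.00. A log2 difference of at least 2 was reached by 5 members besides Col2a1 and by 2.06% of all genes. By edgeR's quasi-likelihood test 0 members passed an adjusted p of 0.05, as did 0 of all genes (0.0%), and the members' adjusted p ran from 0.196 to 0.68. At an unadjusted p under 0.05, 7 members were higher in MI and 0 lower, against 7.12% of all genes higher and 4.51% lower. DESeq2 called 7 members higher, against 2.18% of all genes.

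**Figure D1:**
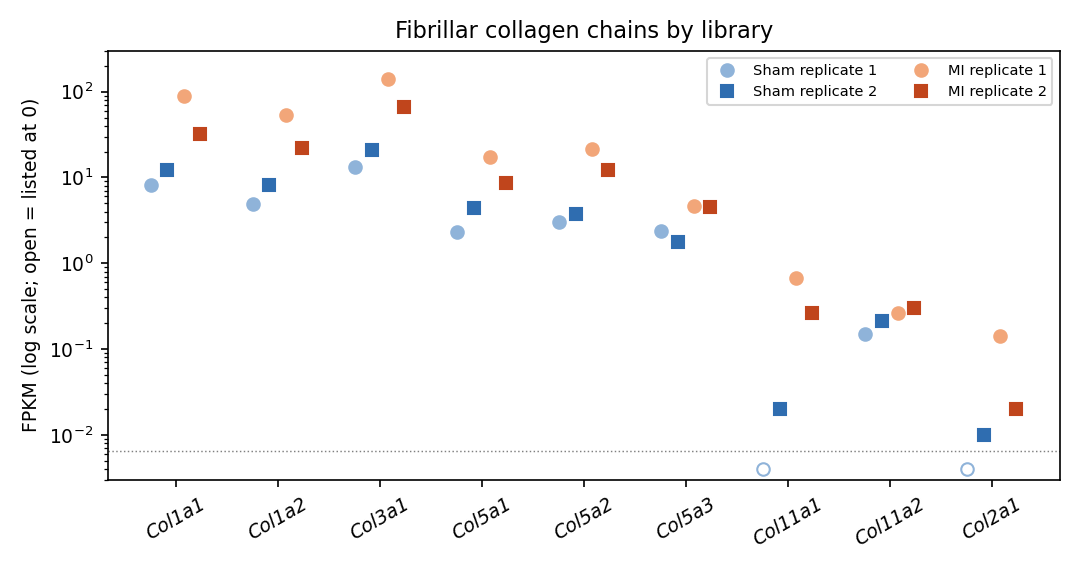
FPKM on a log axis for each of the 9 chains in the 4 libraries (circles, replicate 1, squares, replicate 2), with open symbols for genes listed at 0. The 2 MI points lie above the 2 Sham points for each chain, by the widest margin for Col11a1 and the narrowest for Col11a2.

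Type I collagen is the main load-bearing collagen of scar. Col1a1, which encodes its alpha 1 chain (chromosome 11, 94936224 to 94953042), had 8.22 and 12.12 FPKM in Sham, and its MI values were 87.89 and 32.01. MI replicate 1 was thus far above the other 3 libraries, and MI replicate 2 still lay above both Sham libraries. On the CPM scale the group means were 77.9 ± 15.5 (SD, n = 2) in Sham and 388 ± 231 in MI. The log2 difference was 2.32 ± 0.47 (SE) (4.98-fold), with a 95% confidence interval of 1.10 to 3.53 on the log2 scale (edgeR adjusted p = 0.286, DESeq2 adjusted p = 5.65e-06). Col1a2, the alpha 2 chain (chromosome 6, 4504814 to 4541544), had 4.92 and 8.19 FPKM in Sham and 53.30 and 21.78 in MI. It followed the same order of libraries, with a log2 difference of 2.28 ± 0.44 (edgeR adjusted p = 0.275, DESeq2 adjusted p = 2.46e-06). Without MI replicate 1, the library with lung markers, the log2 differences were 1.54 for Col1a1 and 1.62 for Col1a2. Without MI replicate 2 they were 2.83 and 2.75. Without Sham replicate 1 they were 2.13 and 2.02. Without Sham replicate 2, the library with atrial and adipocyte markers, they were 2.53 and 2.60.

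Col3a1, whose product forms type III collagen, the fine fibrils laid down beside type I, was the most abundant chain in every library. It had 13.27 and 21.11 FPKM in Sham, against 139.42 and 66.84 after MI. In CPM its means were 196 ± 49.5 (SD, n = 2) and 1004 ± 428, and the groups did not overlap. The log2 difference was 2.35 ± 0.37, or 5.11-fold, with a log2 interval of 1.39 to 3.32 (edgeR adjusted p = 0.225, DESeq2 adjusted p = 5.94e-09). It was 1.84 without MI replicate 1 and 2.74 without MI replicate 2. Without Sham replicate 1 it was 2.12, and without Sham replicate 2 it was 2.64. The microRNA-type gene Gm47302 lies on the same strand and shares 141 exonic bases with Col3a1. It had between 111 and 890 counts per library, small beside the 10265 to 109012 counts of Col3a1.

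The type V chains did not all differ by the same amount. Col5a2 had 3.02 and 3.72 FPKM in Sham and 21.52 and 12.06 in MI. Its 2 Sham libraries were close together, and it had the smallest p of the members, with a log2 difference of 2.08 ± 0.26 (edgeR adjusted p = 0.196, DESeq2 adjusted p = 6.84e-11). Col5a1, which supplies the alpha 1 chain that starts fibril assembly (chromosome 2, 27886425 to 28039514), had 2.34 and 4.44 FPKM in Sham and 17.43 and 8.51 in MI. Its Sham libraries stood further apart, and the log2 difference was 1.71 ± 0.40 (edgeR adjusted p = 0.32). Without MI replicate 1 it was 1.22. The noncoding genes 2810430I11Rik and Gm13372 lie on the opposite strand and share 99 and 113 exonic bases with Col5a1. They had at most 30 counts in any library, against at least 1578 for Col5a1.

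Col5a3 (chromosome 9, 20770050 to 20815067), the chain found in a minor form of type V, had a different profile. It had 2.36 and 1.75 FPKM in Sham and 4.69 and 4.48 in MI, so the 2 MI libraries were nearly equal. Its log2 difference was 0.93 ± 0.23, with a 95% confidence interval of 0.33 to 1.52 (edgeR adjusted p = 0.327, DESeq2 adjusted p = 0.0308). Without MI replicate 1 it was 0.99, and it ranged from 0.67 without Sham replicate 2 to 1.25 without Sham replicate 1. The ratio of MI replicate 1 to MI replicate 2 in CPM was 0.934 for Col5a3 and 0.759 for Col11a2. It was 2.45 for Col1a1, 2.18 for Col1a2, 2.33 for Col11a1, 1.86 for Col3a1, 1.83 for Col5a1, 1.59 for Col5a2 and 6.9 for Col2a1. On CPM, 7 of the 9 members were thus higher in the MI library with lung markers, as were 50.5% of all genes tested. On FPKM 8 of the 9 were, Col5a3 among them, against 69.2% of all genes. What part the lung transcripts had in these levels was not tested. Nor was the part of the atrial and adipocyte transcripts of Sham replicate 2 in the Sham levels.

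Type XI collagen is the cartilage counterpart of type V. Col11a1 (chromosome 3, 114030540 to 114220718) was nearly absent from Sham, with 4 and 21 counts, and had 697 and 278 counts in MI. The first of these Sham values lies below the floor of 12 counts. In FPKM it was listed at 0 and 0.02 in Sham and at 0.68 and 0.26 in MI. It had the largest log2 difference of the members, 4.93 ± 0.88 (edgeR adjusted p = 0.261, DESeq2 adjusted p = 1.4e-07). It was 4.20 without MI replicate 1, also 4.20 without Sham replicate 1, and 6.53 without Sham replicate 2. From 6 Sham and 244 MI fragments, the ratio was 32.4 with an exact 95% counting interval of 14.7 to 89.2. Col11a2 (chromosome 17, 34039437 to 34066685) had 82 and 105 counts in Sham, against 142 and 174 after MI. A log2 difference of 0.44 ± 0.37 was fitted, with a 95% confidence interval of -0.51 to 1.39 that spans 0 (edgeR adjusted p = 0.68, DESeq2 adjusted p = 0.794).

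Col2a1 (chromosome 15, 97975602 to 98004695), the chain of type II collagen and the defining collagen of cartilage, had 0 and 8 counts in Sham and 104 and 14 in MI. It was therefore above the floor in the MI libraries and below it in both Sham libraries, and MI replicate 2 was only just above. Its fitted log2 difference of 3.49 ± 1.67 had a 95% confidence interval of -0.85 to 7.84 (edgeR adjusted p = 0.497). The ratio from 2 Sham and 30 MI fragments was 12.0, with an exact 95% counting interval of 3.03 to 103. The fitted difference was 1.52 without MI replicate 1, 4.30 without MI replicate 2, 2.52 without Sham replicate 1 and 8.74 without Sham replicate 2. On log2(FPKM + 1) with no filter, limma gave 0.10. Other cartilage genes were read beside it. Acan, the large cartilage proteoglycan, had 8 and 27 counts in Sham and 455 and 60 in MI, and Col9a2, a chain of type IX collagen, had 5, 20, 258 and 81 in the same order. Snorc and Ucma, made by chondrocytes, had 0 counts in all 4 libraries, and Matn1 had 0 in both MI libraries. Cnmd was lower in both MI libraries on CPM, with 32 and 82 counts in Sham and 28 and 34 in MI. The other type IX chains did not follow Col9a2: Col9a3 had 15, 31, 25 and 7 counts, and Col9a1 had 0, 8, 8 and 0. Of the 12 cartilage markers, 4 were higher and 1 lower in both MI libraries on CPM. Among all genes tested, 24.9% were higher and 21.9% lower in this way. The 12 cartilage markers summed to 0.47 and 5.30 FPKM in Sham and 42.4 and 23.8 in MI, and Comp alone gave 39.31 and 22.64 of the MI sums. The 6 tendon and valve markers summed to 1.32 and 6.59 FPKM in Sham, against 21.6 and 18.5 after MI. Of these, 3 of 6 were higher in both MI libraries on CPM, where 24.9% of all genes tested were. Fmod alone gave 17.63 and 13.43 FPKM of the MI sums, and Kera was at 0 in all 4 libraries. The part of cartilage, tendon or valve cells in the Col2a1 and Col11a1 values was not tested.

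**Figure D2:**
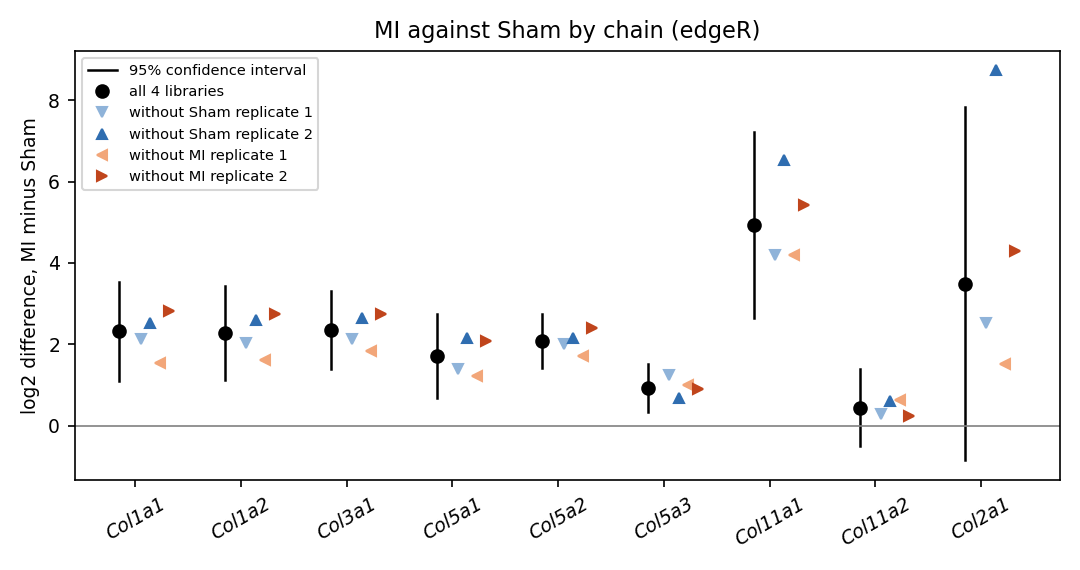
The log2 difference (MI minus Sham) of each chain by edgeR, as a black point with its 95% confidence interval, with the value after each of the 4 libraries was left out as coloured triangles. With both MI libraries above both Sham libraries for each chain, every triangle lies above 0. Those for Col1a1, Col1a2 and Col3a1 are lowest without MI replicate 1, and those for Col5a3 stay between 0.67 and 1.25.

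Chain ratios were then taken within each library, where scaling between libraries cancels. The ratio of Col1a1 to Col1a2 in FPKM was 1.67 and 1.48 in Sham, against 1.65 and 1.47 after MI. The mean log2 ratio was 0.65 ± 0.12 (SD, n = 2) in Sham and 0.64 ± 0.12 in MI. The gap between groups, -0.01, was thus smaller than the spread within either, although the fitted difference of each gene was above 4-fold. With 2 libraries against 2, the exact 2-sided permutation test cannot give a p below 0.333, and 11 ratios were computed, so the smallest adjusted p was 0.733. The ratio of Col3a1 to Col1a1 was 1.61 and 1.74 in Sham and 1.59 and 2.09 in MI. The groups overlapped (log2 difference 0.12, exact permutation p = 1.0), and without MI replicate 2 the difference was -0.08. Col3a1 to Col1a2 was 2.70 and 2.58 in Sham and 2.62 and 3.07 in MI, which also overlapped.

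The level of these ratios depends on the length used, whereas the difference between groups does not. The deposited FPKM divide by all annotated exonic bases of a gene, retained introns included: 98.3% to 98.5% of genes above 5 FPKM fit that length within 1%. For Col1a2 this is 12426 bases, whereas its longest coding transcript has 5348. For Col1a1 the 2 lengths are 6563 and 5930. Per base of the longest coding transcript, Col1a1 to Col1a2 was 0.795 and 0.705 in Sham and 0.786 and 0.70 in MI. So Col1a1 was above Col1a2 on the deposited scale and below it on the transcript scale, in each of the 4 libraries. Col3a1 to Col1a1 was 2.57, 2.77, 2.53 and 3.33 on the transcript scale, in the order Sham 1, Sham 2, MI 1, MI 2. This length was chosen after the data were seen.

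**Figure D3:**
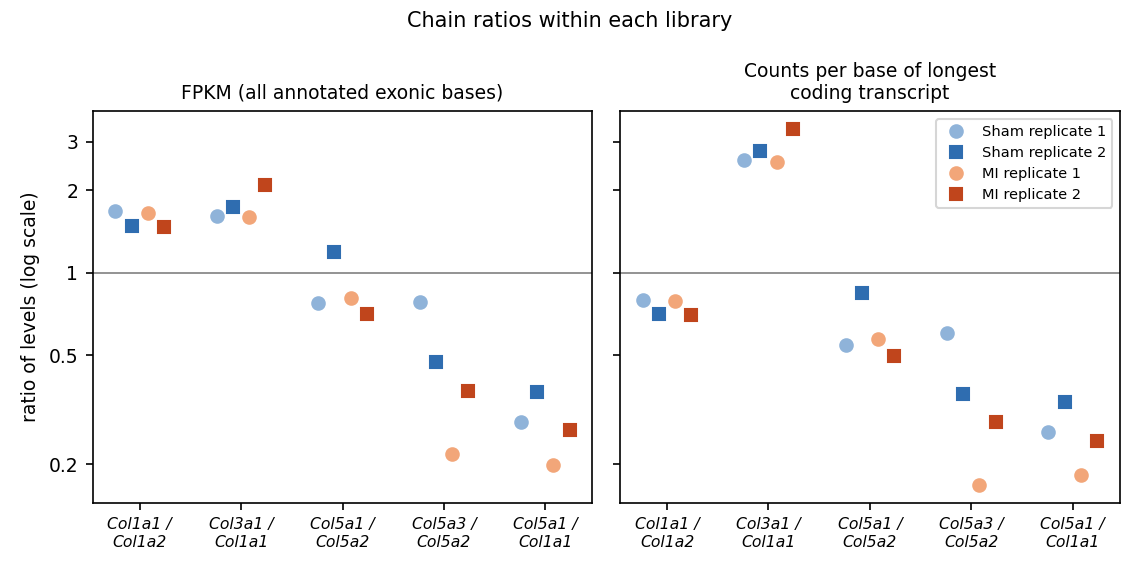
Ratios of 5 chain pairs within each library on a log axis, from FPKM (left) and per base of the longest coding transcript (right), with a line at 1. The Col1a1 to Col1a2 points of all 4 libraries lie above the line on the left and below it on the right, and the MI points lie below the Sham points for Col5a3 to Col5a2 and Col5a1 to Col1a1 in both panels.

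Within type V, only the ratio of Col5a3 to Col5a2 did not overlap between groups. With 2 libraries against 2, any ratio without overlap gets the exact permutation p of 0.333, so no difference in balance can be called. The ratio of Col5a3 to Col5a2 was 0.781 and 0.470 in Sham and 0.218 and 0.371 in MI, with no overlap (log2 difference -1.09, exact permutation p = 0.333, adjusted 0.733). Beside Col5a2, Col5a3 was thus lower in both MI libraries. The SD of the log2 ratio was 0.52 in Sham and 0.54 in MI (n = 2 each), and the difference ranged from -1.48 to -0.71 when single libraries were left out. Col5a1 to Col5a2 was 0.775 and 1.19 in Sham and 0.810 and 0.706 in MI, and the groups overlapped. Col5a3 to Col5a1 also overlapped, at 1.01 and 0.394 in Sham and 0.269 and 0.526 in MI. Between types, Col5a1 to Col1a1 was 0.285 and 0.366 in Sham and 0.198 and 0.266 in MI, lower in MI without overlap. Its log2 difference was -0.49, and ranged from -0.70 to -0.28 with single libraries left out. Col5a2 to Col1a2 overlapped, at 0.614 and 0.454 in Sham against 0.404 and 0.554 after MI. The log2 difference was -0.16, and 0.07 when MI replicate 1 was left out.

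Col11a1 was also set beside the type V chains. Per kilobase of exonic length, computed from counts since its FPKM was listed at 0 in a library, Col11a1 to Col5a1 was 0.00169 and 0.00507 in Sham and 0.0391 and 0.0307 in MI. Col11a1 to Col5a2 was 0.00132 and 0.00611 in Sham and 0.0319 and 0.0218 in MI. Col11a1 to Col11a2, the members named for type XI, was 0.0263 and 0.108 in Sham and 2.65 and 0.862 in MI. None of these 3 ratios overlapped between groups, and each had an exact permutation p of 0.333. Their Sham values rest on 4 and 21 counts of Col11a1. With 0.1 added to each FPKM, the log2 differences were 0.39 (to Col5a1), 0.04 (to Col5a2) and 1.83 (to Col11a2), in place of 3.56, 3.22 and 4.83, so their size depends on how the low values are treated.

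As shares of the summed FPKM of the 9 chains, type I held 38.3% and 39.4% in Sham and 43.4% and 36.8% in MI. Type III held 38.7% and 40.9% in Sham and 42.9% and 45.7% in MI, and type V held 22.5% and 19.2% in Sham and 13.4% and 17.1% in MI. The type I shares overlapped between groups, while type III was higher and type V lower in both MI libraries. Shares of a common sum depend on each other, and they were not tested. The ratios of Col3a1 to Col1a1 and to Col1a2 overlapped between groups. Type XI held at most 0.446% in any library and type II at most 0.043%. With the longest coding transcript as the length, type III held 43.8%, 45.5%, 47.1% and 50.0% (Sham 1, Sham 2, MI 1, MI 2) and type V 17.5%, 14.4%, 10.3% and 13.2%. The order of the groups was the same on both lengths. On that length Col1a2 came second after Col3a1 in all 4 libraries, where on FPKM Col1a1 did.

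**Figure D4:**
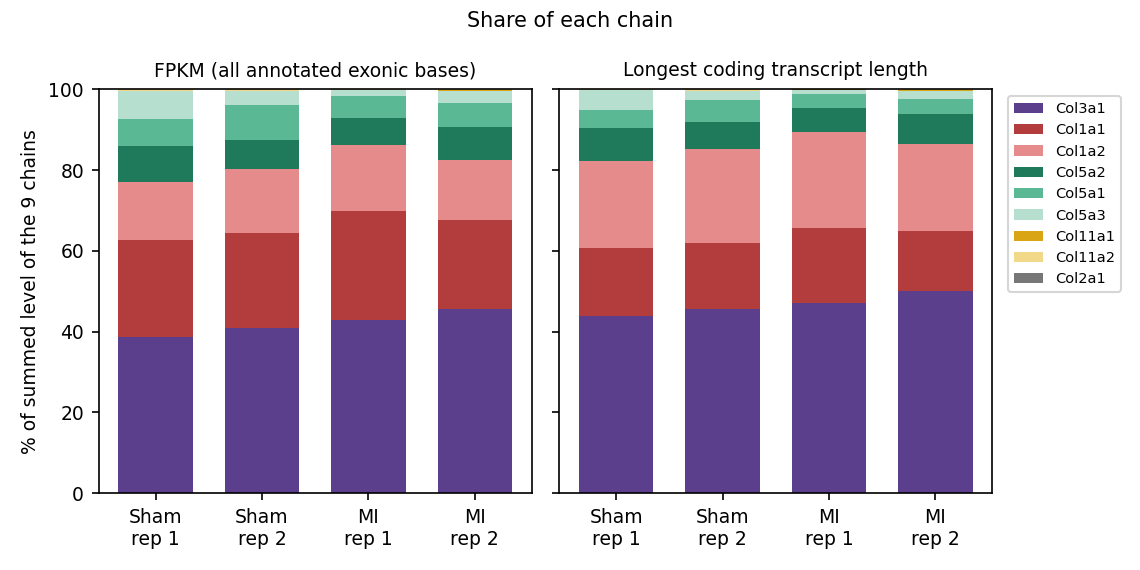
Stacked bars of each chain's share (%) of the summed level of the 9 chains in each library, from FPKM (left) and with the longest coding transcript as the length (right). Col3a1 is the largest block in every bar, the green type V blocks are thinner in the MI bars, and the type XI chains are thin bands at the top or not visible.

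The fibrillar chains were also set beside fibroblast genes, since fibroblasts are their main source in heart. The 8 fibroblast markers summed to 273 and 436 FPKM in Sham and 529.3 and 530.0 in MI. The 9 chains summed to 34.3 and 51.6 FPKM in Sham and 325 and 146 in MI. Their ratio to the fibroblast markers was 0.126 and 0.118 in Sham and 0.615 and 0.276 in MI. The Sham ratios were nearly equal, and both MI ratios were above them. Gsn, which overlapped between groups, gave 176.24 and 283.73 FPKM of the marker sums in Sham, against 246.92 and 288.64 after MI. Without Gsn, an alternative chosen after the data were seen, the ratio was 0.355 and 0.339 in Sham, against 1.15 and 0.606 after MI. Of 8 markers of activated fibroblasts, 7 were higher in both MI libraries on CPM, where 24.9% of all genes tested were. The eighth, Acta2, overlapped. The 8 summed to 42.8 and 82.1 FPKM in Sham and 267 and 172 in MI, and Comp among them is also a cartilage marker above. The 4 endothelial markers were also each higher in both MI libraries, beside the same 24.9% of all genes. Their sums were 208 and 229 FPKM in Sham, against 309.0 and 271 after MI. The part of cell number in the collagen levels was not tested.

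**Figure D5:**
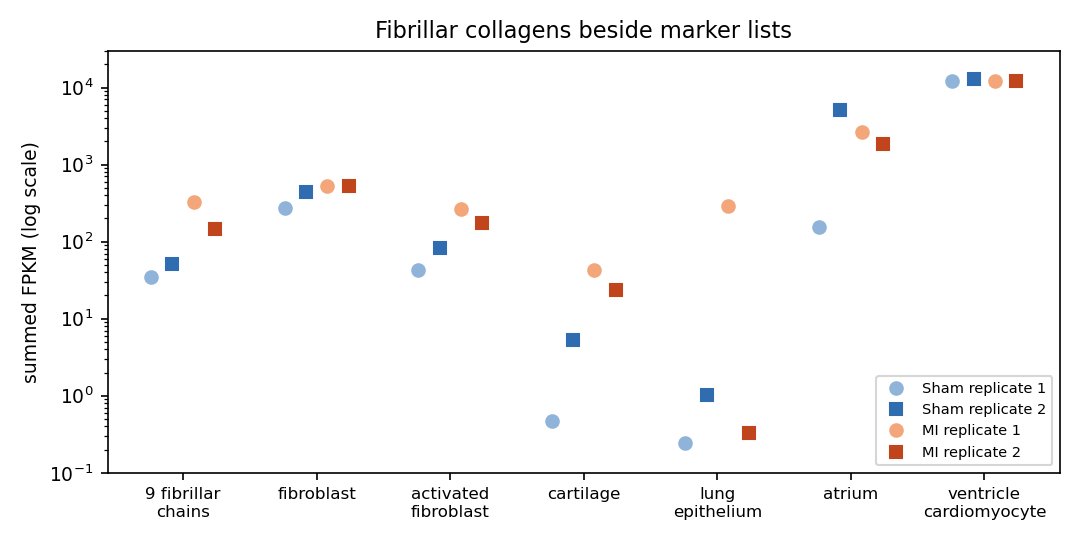
Summed FPKM on a log axis of the 9 fibrillar chains and of 6 marker lists in each library. The fibrillar chains and the activated fibroblast markers are higher in both MI libraries, the lung markers are high only in MI replicate 1 (290 FPKM), and the atrial sums of the MI libraries are nearly all Nppa (2631.97 and 1855.23 FPKM).

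Making a fibril takes more than the chains. The counts of the gene lists that follow stand beside 7.12% of all genes higher and 4.51% lower at an unadjusted p under 0.05, and beside 2.23% higher without MI replicate 1. Among 20 tested regulators of collagen genes, 7 were higher at an unadjusted p under 0.05 and 0 lower (median log2 difference 0.32). Tgfb1, the profibrotic growth factor, had 2.84 and 3.35 FPKM in Sham and 6.12 and 5.17 in MI (log2 difference 0.64 ± 0.14). Sox9, the factor that drives Col2a1 and Col11a2 in cartilage, had 0.11 and 0.25 FPKM in Sham and 0.89 and 0.50 in MI (1.74 ± 0.53). Meox1, a factor of activated fibroblasts, had 1.68 ± 0.22, while Ccn2 and Nfyc overlapped at 0.25 ± 0.64 and -0.20 ± 0.18. Without MI replicate 1, 4 of the regulators were higher.

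Enzymes and chaperones act on the chains inside the cell. Of 21 tested, 8 were higher at an unadjusted p under 0.05 and 0 lower, with a median log2 difference of 0.47, and without MI replicate 1 there were 3. P4ha1, a prolyl hydroxylase subunit that makes the helix stable at body temperature, had 5.16 and 4.92 FPKM in Sham and 11.65 and 9.78 in MI (0.86 ± 0.14). Plod2, a lysyl hydroxylase, had 0.58 ± 0.14. Serpinh1, the collagen chaperone, had 51.10 and 18.14 FPKM in Sham and 106.96 and 77.83 in MI. Its Sham libraries differed widely, and its log2 difference of 1.15 ± 0.54 did not pass, so it is not among the 8. P4hb, the partner of P4ha1, overlapped (0.06 ± 0.14), and the collagen-binding protein Sparc had 1.44 ± 0.32.

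Once outside the cell, procollagen is trimmed and crosslinked. Of 13 tested genes of export and propeptide removal, 3 were higher and 0 lower at an unadjusted p under 0.05, and the median was -0.08. The 3 were Adamts2 and Bmp1, the enzymes that cut the N and C propeptides (1.38 ± 0.26 and 0.99 ± 0.20), and Pcolce, which helps Bmp1 (0.66 ± 0.24). The export genes Sar1b and Furin, a protease of the secretory pathway, had -0.37 ± 0.15 and -0.13 ± 0.14. Of 6 crosslinking genes 4 were higher and 0 lower (median 1.24), and without MI replicate 1 there were 2. Lox, the main lysyl oxidase, had 3.33 and 1.72 FPKM in Sham and 11.23 and 6.51 in MI (1.55 ± 0.43). Loxl1 and Loxl2 had 1.16 ± 0.20 and 1.33 ± 0.31, and the transglutaminase Tgm2 had 0.28 ± 0.17 and did not pass.

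Other matrix proteins bind to the fibrils as partners. Of 17 tested, 14 were higher at an unadjusted p under 0.05 and 0 lower, with a median log2 difference of 1.75, and without MI replicate 1 there were 9. Col12a1, which lies on fibril surfaces, had 0.08 FPKM in both Sham libraries and 1.87 and 1.09 in MI. The abundant proteoglycans Bgn and Dcn had 1.42 ± 0.36 and 0.65 ± 0.16, Col6a1 had 1.57 ± 0.31 and Postn 2.96 ± 0.35. Of the fibril-forming chains outside the 9, Col27a1 had 0.22 and 0.23 FPKM in Sham and 0.83 and 0.59 in MI (1.42 ± 0.23). Col24a1 was listed at no more than 0.06 FPKM in any library and was not tested.

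Cells hold fibrils through receptors and remove them with proteases. Of 10 collagen receptors, 4 were higher at an unadjusted p under 0.05 and 0 lower (median 0.28, where that of all genes was 0.00). Itga11, the integrin chain by which fibroblasts bind type I collagen, had 0.14 and 0.27 FPKM in Sham and 2.39 and 1.3 in MI (2.91 ± 0.42), and Mrc2, an uptake receptor for collagen fragments, had 1.14 ± 0.24. The kinase receptors Ddr1 and Ddr2 overlapped between groups, at -0.08 ± 0.16 and -0.05 ± 0.18, as did the shared integrin chain Itgb1 at 0.11 ± 0.24. Of 10 breakdown genes, 3 were higher and 0 lower (median 0.36), and without MI replicate 1 there was 1. These were Mmp2, a gelatinase, at 1.61 ± 0.21, Ctsk, a collagen-cutting cathepsin, at 1.36 ± 0.33, and the inhibitor Timp3 at 0.39 ± 0.14. Timp2, another inhibitor, had 10.33 and 24.26 FPKM in Sham, against 41.05 and 28.74 after MI (0.81 ± 0.38), and did not pass. The collagenase Mmp13 was listed at 0.10 FPKM or less in each library.

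Profiles over the 4 libraries were compared with those of genes with a mean FPKM of at least 1. Col11a1 itself, at no more than 0.68 FPKM in any library, lies below that level, so genes as low as it were left out. The 5 genes whose mean-centred log2 CPM lay nearest to Col1a1 were Col1a2 (Euclidean distance 0.17), Fn1 (0.18), Col3a1 (0.31), Gm47302 (0.36) and Eln (0.42). Gm47302 overlaps Col3a1. Fn1 encodes fibronectin and Eln elastin. Nearest to Col3a1 were Col1a2 (0.20), Mdk (0.31), Col1a1 (0.31), Col16a1 (0.35) and Eln (0.38). Nearest to Col11a1 were Col8a2 (0.37), Sfrp2 (0.43), Gas1 (0.60), Ltbp2 (0.62) and Angptl7 (0.82). With 4 points per gene this is a description of these libraries.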

How the data were processed

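The deposited table gives, for each gene and library, an estimated count and an FPKM, both made by the authors, per the file headers. The libraries were strand-marked (dUTP) and paired-end, made from oligo(dT)-selected RNA, per the labels' protocols. StringTie 1.3.4d, HISAT2 2.0.4, UMI-tools and cutadapt 1.9 are named, per the submitters' processing notes. The role of each tool, the build and the use of strand in counting: not given in the sources used here. Among gene identifiers, 99.5% occur in GENCODE M21 (GRCm38), and the 9 members have the same positions there. The deposited FPKM are scaled by all annotated exonic bases of a gene, as found from the values.

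Groups were taken from the titles. The filterByExpr thresholds were a min.count of 10 and a min.total.count of 15, and 18475 genes passed. After TMM scaling, the quasi-likelihood test of edgeR 4.0.16 (R 4.3.3), 2-sided, compared the groups with no covariate, and p-values were adjusted by Benjamini-Hochberg over all genes tested. SE and 95% confidence intervals come from that fit. The estimated counts are whole numbers and were used as they are. DESeq2 1.42.0 and limma 3.58.1 on log2(FPKM + 1) were alternatives. The steps were tested on simulated counts. Ratios were tested by an exact permutation test. The members, lists and tests were chosen with earlier results of these data known.

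Named are the 9 members, each list's 3 most abundant genes with genes fixed by name, and the 5 genes of most similar profile for Col1a1, Col3a1 and Col11a1. Acan, Col9a1, Col9a2, Col9a3, Cnmd, Comp, Snorc, Ucma, Matn1, Acta2, Nppa, Gsn, Fmod, Kera, Myh1, Myh2, Myh4, Ckm and Timp3 come from the marker and pathway lists. Timp3 is among the 3 most abundant of its list.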

Additional observations from a re-analysis of the deposited data

How the results depend on the processing

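The 9 members kept a higher level in MI in all 110 values computed under the alternatives. Each member had both MI libraries above both Sham libraries, so alternatives on the same libraries could hardly reverse a direction. Of these values, 7, all from DESeq2, passed an adjusted p of 0.05 where edgeR's did not. DESeq2 called 635 genes in all. Members higher at an unadjusted p under 0.05 numbered 6 to 8 with single libraries left out, and 0 passed an adjusted p. Where a group was left with a single library, that library was assumed to vary like the other group. Of all genes, 0 to 14 passed an adjusted p, 432 to 1917 were higher and 378 to 1209 lower at an unadjusted p. The number lower was 432 in the fit without mitochondrial transcripts, which also left out TMM scaling, so the 2 changes cannot be told apart. It was 195 and 184 in limma with a pseudocount of 1 and 0.1. In limma without a filter it was 492, with 3015 higher. In those limma and mitochondria-free fits the median of all genes lay 0.04 to 0.19 above 0 on the log2 scale. With replicate number as a block, 552 genes were lower and no member's side of the threshold moved; Col1a1 had a log2 difference of 2.19 in that fit. Deviations of same-numbered libraries had a correlation of -0.056 across genes, so the numbers were not taken as pairs.

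With single libraries left out, the log2 differences of ratios ranged from -0.10 to 0.07 for Col1a1 to Col1a2, -0.08 to 0.32 for Col3a1 to Col1a1, -0.01 to 0.22 for Col3a1 to Col1a2, and -0.39 to 0.07 for Col5a2 to Col1a2. Members higher at an unadjusted p ranged from 4 to 7 for regulators, 3 to 11 for folding, 2 to 4 for crosslinking, 9 to 17 for fibril partners and 1 to 4 for breakdown. Of the other fibril-forming chains, 0 were higher in limma, whose filter on low FPKM removed both. On log2(FPKM + 1), 3 of the 5 genes nearest to Col3a1 and 0 of those nearest to Col11a1 were shared. The cause of these shifts was not tested. The longest coding transcript as length was an alternative chosen after seeing the data. The limma filter also removed Col2a1, Col11a1 and Col11a2, and the filter on counts divided by 4 removed Col2a1. Depth limits Col2a1 and the Sham values of Col11a1, at or near 12 counts per library.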
